A study of Homo sapiens with 12 samples.

Results

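Input RNA of METTL1 knockdown cells was compared with input RNA of control cells, gene by gene. The deposited table lists regions of the transcriptome called as m7G peaks, with the reads of every library in each region, and only the columns of the input libraries enter this comparison. A region was kept when it held at least 20 reads over the 6 input libraries and overlapped 1 gene. Overlapping regions of a gene were reduced to the widest, and the reads of those left were summed. Of 9958 regions in the table, 5129 held 20 reads or more and 4738 of these lay over 1 gene. They gave 3402 non-overlapping regions in 2665 genes, out of 4914 genes with any region of their own. Of the 2665 genes, 2091 had 1 region and 574 had several. A value is therefore the input coverage of a gene's m7G peak regions, not of its whole transcript, and a gene without such a region has no value here.

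All libraries were labelled as made from THP-1, a human monocytic leukemia line that turns adherent and macrophage-like when given the phorbol ester PMA. According to the labels every culture received PMA at 100 ng/ml for 48 h, and polyadenylated RNA was selected on oligo(dT). The groups are NC, described as wildtype THP-1 cells, and KD, their derivatives carrying a short hairpin RNA against METTL1 (shMETTL1). Each group has 3 input libraries (IN, taken as RNA not exposed to the antibody) and 3 immunoprecipitated libraries (IP). The labels do not say whether NC cells carry a control hairpin, whether KD is 1 clone, or whether the numbered libraries come from separate cultures. The p-values below therefore measure the spread between these libraries, which may be technical.

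METTL1, with its partner WDR4, forms the methyltransferase that places 7-methylguanosine at a defined position of many tRNAs and at internal sites of some mRNAs and microRNA precursors. Cells that lose it are known to lose part of their tRNA pool and to translate poorly the mRNAs rich in the codons read by those tRNAs. PMA-treated THP-1 cells are a common model of the macrophage, the phagocyte of the tissues, which engulfs particles, degrades them in lysosomes, makes reactive oxygen with a membrane oxidase, handles large amounts of lipid and releases cytokines. Input RNA shows which of these programmes differed in RNA level between the groups, before any question about the methyl mark.

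Reads in the measured genes numbered 489880 to 606779 per input library, and these are reads in peak regions, not the sequencing depth. Levels are given as CPM, scaled to those reads with TMM factors, as mean ± SD of 3 libraries unless a value per library is given, and log2 changes are KD over NC with their standard error from edgeR. Over genes, log2 levels of 2 libraries correlated at r = 0.943 to 0.955 within a group and at 0.824 to 0.839 between groups, genes not being independent replicates. The share of reads from mitochondrial genes was 3.06% to 6.62%, lowest in KD replicate 3 and highest in NC replicate 2.

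No region with a value lay in METTL1 or WDR4, and the knockdown itself therefore could not be checked. Marker lists were read next, as a check of the labelled cell type. Pan-leukocyte genes were present in both groups and higher in KD: 7 of 24 listed markers were measured, 5 were called higher at an adjusted p under 0.05 and none lower, against 16.8% of all genes called higher and 21.0% called lower. Their summed level was 2604, 2648 and 2337 CPM in NC and 5821, 5478 and 5384 in KD, so the groups did not overlap. ARHGDIB, a GTPase regulator of blood cells (chromosome 12, 14942015 to 14961601), had 654, 463 and 501 CPM in NC and 1643, 1623 and 1662 in KD (log2 1.60 ± 0.12, adjusted p = 9.1e-09 in edgeR). HCLS1, an actin regulator of blood cells, rose by 1.16 ± 0.13, the lysosomal membrane protein LAPTM5 by 0.98 ± 0.11, the integrin chain ITGB2 by 0.78 ± 0.13 and the sialoglycoprotein SPN by 0.81 ± 0.16 on the log2 scale.

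Of 34 macrophage and monocyte markers, 5 were measured, and CD14, CSF1R and the other 27 had no value. The sum of the 5 was 661 to 678 CPM in NC and 856 to 1051 in KD. Of the 5, 2 were called higher in edgeR at an adjusted p under 0.05. The integrin chain ITGAX, among them, had log2 0.57 ± 0.20 (adjusted p = 0.034) and missed the threshold without KD replicate 1 or 2 or NC replicate 2 or 3 (adjusted p 0.05 to 0.17), which leaves 1 gene called higher in place of 2. The lysosomal glycoprotein CD68 (0.62 ± 0.26; 0.87 and called without KD replicate 3, which makes 3 higher) and the lineage factor SPI1 (0.51 ± 0.26) did not pass. CPVL, a carboxypeptidase of macrophages, went the other way, with 64 reads in NC and 1 read in KD, a ratio of 71.9 (95% counting interval 12.4 to 2883). Its 1 region is in the peak set named for KD alone. In IP that region was not called, with log2 -0.15 ± 0.83 (4.39 CPM in NC and 3.79 in KD).

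The NC libraries also carried RNA that is not typical of monocytic cells. Of 26 genes listed as markers of the embryonic kidney line HEK293, 15 were measured and 11 were lower in KD, 1 higher. The list was chosen with earlier results of these data known, so this count is a description and not a test. The summed level of the 15 genes was 24575, 24561 and 25234 CPM in the NC libraries and 5944, 5916 and 5786 in KD. NEFM alone gave most of the NC sum (12744 ± 394 CPM). The epithelial list (4 of 20 measured, 3 lower) summed to 960 to 989 CPM in NC and 31.1 to 32.4 in KD. DSP gave most of the NC sum (871 ± 13.9 CPM). PPL, which was not called (log2 1.66), gave most of the KD sum (29.5 ± 2.56 CPM). TJP1 missed the threshold in edgeR without KD replicate 1 or 2 or NC replicate 2 (adjusted p 0.056 to 0.079). The fibroblast list (5 of 22 measured, 2 lower, none higher but COL6A2 without KD replicate 1 or NC replicate 1) summed to 1671 to 2072 in NC and 372 to 498 in KD. CALD1 gave most of that NC sum (1591 ± 221 CPM), and COL3A1 (log2 -0.29) and TPM1 (-0.10) were not called. The neuronal list (5 of 21 measured, 3 lower, and DPYSL3 higher unless KD replicate 1 or NC replicate 2 or 3 was left out) summed to 771 to 993 in NC and 307 to 370 in KD. No lymphoid or erythroid marker of the 16 and 12 listed was measured. Within the HEK293 list, LIN28B had 0 reads in KD, IRS4 and HOXC9 1 read each, HOXC8 2, BEX2 3 and NEFM and NEFL 6 each, while the reads that remained in KD came mostly from MAP1B (2884 ± 175 CPM) and TCEAL9 (2385 ± 210 CPM). All 3 NC libraries held these transcripts, so no result can be given without them, and the part they play in the results below was not tested. In bulk RNA, fewer cells of a type and less RNA per cell cannot be told apart.

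**Figure D1:**
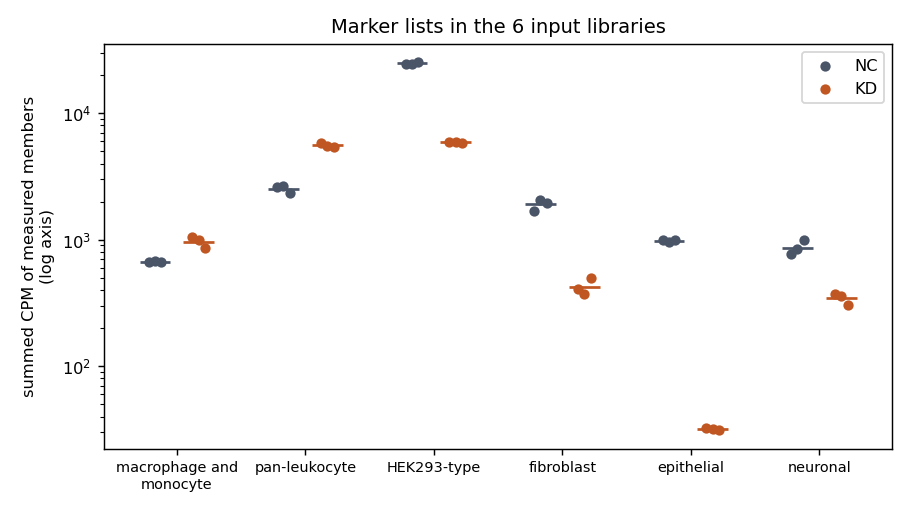
Summed level of each marker list in the 6 input libraries, in CPM on a log axis, 1 point per library and a line at the mean of each group. Pan-leukocyte genes lie near 2530 CPM in NC and 5561 in KD, and epithelial genes near 979 in NC and 31.8 in KD. HEK293-type genes lie near 24790 in NC, of which NEFM alone gives 12744, and near 5882 in KD.

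Across all genes the groups differed widely in both directions. edgeR's quasi-likelihood test called 1007 of 2665 genes (37.8%), 448 higher in KD (16.8%) and 559 lower (21.0%), with 0.05 as the limit of the adjusted p. The 3 KD libraries lay on 1 side of the 3 NC libraries in 1338 genes (50.2%), above them in 23.2% of all genes and below them in 27.1%. The median log2 change was 0.01, with quartiles of -0.80 and 0.66. The median log2 change was -1.74 among genes called lower and 1.06 among genes called higher, but 123 of the former and 63 of the latter had fewer than 4 reads in the lower group, where the size is poorly known. Of the genes called lower, 388 changed at least 2-fold and 123 at least 16-fold, and 42 had no read in KD. Of the genes called higher, 244 changed at least 2-fold and 41 at least 16-fold, and 29 had no read in NC.

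**Figure D2:**
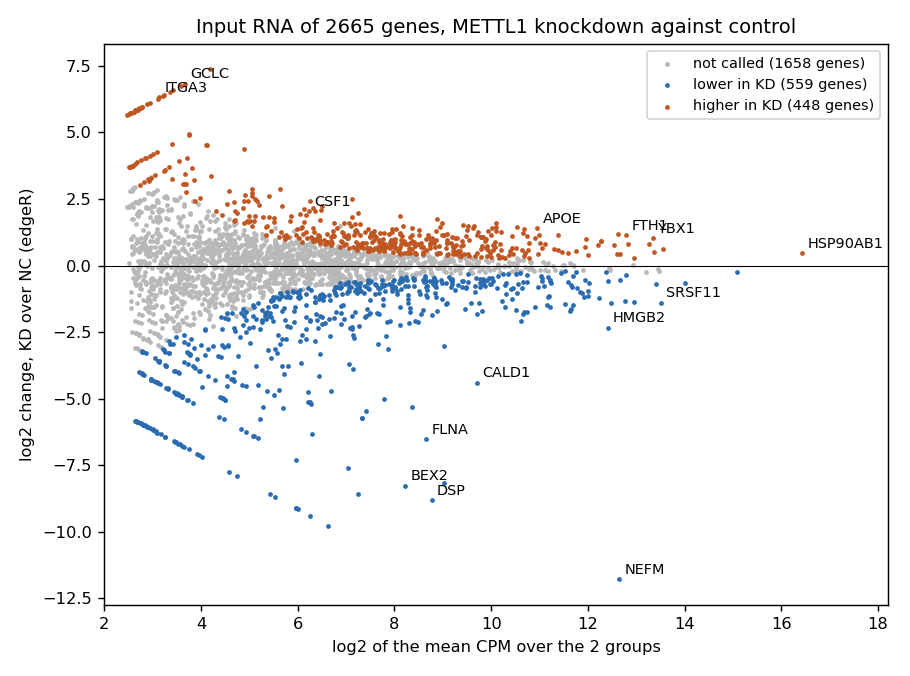
Log2 change, KD over NC, of each of the 2665 genes against the log2 of its mean CPM over both groups. Blue points are the 559 genes called lower, orange points the 448 called higher and grey points the rest. NEFM lies alone at -11.78, while HSP90AB1, at the right, changed by 0.46. The straight rows of points at the left are genes with 0 to 3 reads in 1 group.

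Some genes with a high level in NC were all but absent from KD. NEFM, the medium neurofilament chain, had 12634, 12415 and 13181 CPM in NC and 0, 7.98 and 1.83 in KD, 6 reads in all (log2 -11.78 ± 0.22, adjusted p = 6.6e-18 in edgeR, and -13.48 without KD replicate 2). DSP, the desmosomal protein that anchors keratin filaments (chromosome 6, 7541671 to 7586714), had 855, 878 and 880 CPM in NC against 0, 3.19 and 1.83 in KD. With 3 reads in KD its ratio is 510 (95% counting interval 174 to 2478). BEX2 (brain expressed X-linked 2; chromosome X, 103309346 to 103310990) had 604, 593 and 593 CPM in NC and 1.70, 0 and 3.66 in KD, a ratio of 350 (119 to 1701). For each of these 3 genes the lowest NC library lay far above the highest KD library. That the groups do not overlap was a condition for naming NEFM and DSP.

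Other genes had no read in any KD input library, so that a bound alone can be given, taking 3 counts in the whole group as the floor. MAP9, a microtubule-associated protein of the spindle, had 192, 181 and 220 CPM in NC and was at least 116-fold lower. PNMA8A was at least 88.0-fold lower and CCDC8, a cullin cofactor mutated in a growth disorder, at least 74.5-fold. LIN28B, which blocks maturation of let-7 microRNAs, had 76.8, 178 and 121 CPM in NC and was at least 71.5-fold lower, and AKAP12, a scaffold for protein kinase A, at least 72.6-fold. P3H3, a collagen prolyl hydroxylase, was at least 54.3-fold lower and the simple-epithelium keratin KRT18 at least 51.7-fold. Of the genes in this paragraph CCDC8 has regions in both peak sets, and the others have regions in the set named for KD alone. The part of peak calling in these folds was not tested.

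Among genes with at least 20 reads in each group, where both levels are measured, MAP7D2, a microtubule-binding protein, fell furthest (696, 654 and 564 CPM in NC; 6.82, 16 and 25.6 in KD; log2 -5.30 ± 0.26, adjusted p = 2.3e-11 in edgeR). CACNG8, an auxiliary subunit of AMPA receptors, fell by 5.01 ± 0.34 on the log2 scale (-6.26 without KD replicate 2). CALD1, the actin- and myosin-binding caldesmon, had 1354, 1789 and 1632 CPM in NC and 93.7, 49.5 and 84.2 in KD, a log2 change of -4.40 ± 0.18. UACA, an apoptosome-associated protein, went from 933 ± 77.7 to 114 ± 30.6 CPM (log2 -3.02 ± 0.17). DPH5, an enzyme of diphthamide synthesis on the elongation factor eEF2, fell by 3.15 ± 0.31, and by 3.97 without KD replicate 3, whose 89.7 CPM stood above the 23.9 and 28.7 of the other KD libraries. The chromatin reader CECR2 (log2 -3.68 ± 0.28), the glycosyltransferase B4GALNT3 (-3.34 ± 0.40) and C1orf115 (-3.89 ± 0.27) complete the group. That the groups do not overlap was a condition for naming these genes.

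Among the increases, the genes with no read in NC and few in KD come first by fold, and their size is poorly known. ATP2B1, a calcium pump of the plasma membrane, had 46.0, 52.7 and 11.0 CPM in KD and was at least 19.6-fold higher. GCLC, the catalytic subunit of the first enzyme of glutathione synthesis, had 8.52, 36.7 and 31.1 CPM in KD and was at least 13.4-fold higher. SOCS3, a feedback inhibitor of cytokine receptors, had 1.70, 33.5 and 29.3 CPM and was at least 11.3-fold higher, resting on KD replicates 2 and 3. Without a minimum of reads per region, GCLC and SOCS3 had fitted log2 changes of 3.33 and 3.77. For GCLC this is smaller than its bound, which therefore holds for the kept regions alone. The bounds were 12.5-fold for the tachykinin receptor TACR2, 11.0-fold for the guidance factor SEMA3D and 9.20-fold for the laminin receptor chain ITGA3. All these genes without a read in NC have regions in the peak set named for NC alone. The part of peak calling in their folds was not tested. In the IP libraries of the same regions GCLC was higher as well (log2 3.75), whereas ATP2B1, TACR2, SOCS3, SEMA3D and ITGA3 were not called there (log2 0.67, 0.69, 0.99, -0.74 and 0.29).

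Among genes with at least 20 reads in each group, the 7 increases given here ran from 2.04 to 2.44 on the log2 scale. TASL, an adaptor for IRF5 activation at the lysosome, had 12.2, 40.4 and 44.0 CPM in NC and 155, 131 and 161 in KD (log2 2.22 ± 0.36, adjusted p = 8.4e-05 in edgeR). CSF1, the growth factor of the macrophage lineage (chromosome 1, 109910506 to 109930992), had 27.9, 19.1 and 40.2 CPM in NC and 88.6, 148 and 126 in KD (log2 2.04 ± 0.35). FMNL3, a formin that elongates actin filaments, rose by 2.25 ± 0.48, and by 3.05 without NC replicate 1. The atypical cadherin FAT1 rose by 2.12 ± 0.35, the dystrophin-complex protein SNTB1 by 2.15 ± 0.35, the procollagen protease BMP1 by 2.08 ± 0.30 and the coiled-coil protein TACC1 by 2.44 ± 0.51. Here too the naming rule required groups that do not overlap.

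Among called genes whose groups do not overlap, the 6 largest losses in CPM were those of NEFM, given above, SRSF11, HMGB2, HNRNPA1, SERBP1 and HSP90AA1. SRSF11, a splicing factor (chromosome 1, 70205696 to 70253052), had 16460, 17528 and 16739 CPM in NC and 6614, 6399 and 6141 in KD (log2 -1.40 ± 0.07, adjusted p = 7.2e-11 in edgeR). HMGB2, a DNA-bending chromatin protein of dividing cells (chromosome 4, 173331376 to 173334358), went from 9083 ± 655 to 1796 ± 191 CPM (log2 -2.34 ± 0.10). HNRNPA1 (log2 -1.38 ± 0.08) and SERBP1, a ribosome-associated mRNA-binding protein (-1.34 ± 0.08), fell alike. HSP90AA1, the inducible cytosolic HSP90, fell little, from 37509 ± 756 to 31884 ± 1529 CPM (log2 -0.23 ± 0.07, adjusted p = 0.0095), and missed the threshold with library-size scaling (-0.17, adjusted p = 0.054).

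On the side of gain, HSP90AB1, the constitutive cytosolic HSP90 (chromosome 6, 44246194 to 44253883), had 75369, 73428 and 73971 CPM in NC and 98395, 99712 and 107753 in KD (log2 0.46 ± 0.06, adjusted p = 9.4e-06 in edgeR). YBX1, a cold-shock protein that packages mRNA, went from 6842 ± 689 to 13993 ± 1446 CPM (log2 1.03 ± 0.09). FTH1, the ferritin heavy chain that stores iron (chromosome 11, 61964285 to 61967634), had 4424, 4443 and 4403 CPM in NC and 10382, 10132 and 8720 in KD (log2 1.14 ± 0.08). CAP1, which recycles actin monomers, rose by 1.18 ± 0.08, the myosin light chain MYL6 by 0.80 ± 0.08 and PPP1R15A, the stress-induced subunit that directs dephosphorylation of eIF2, by 0.61 ± 0.08. These 6 genes had the largest gains in CPM under the same rule.

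**Figure D3:**
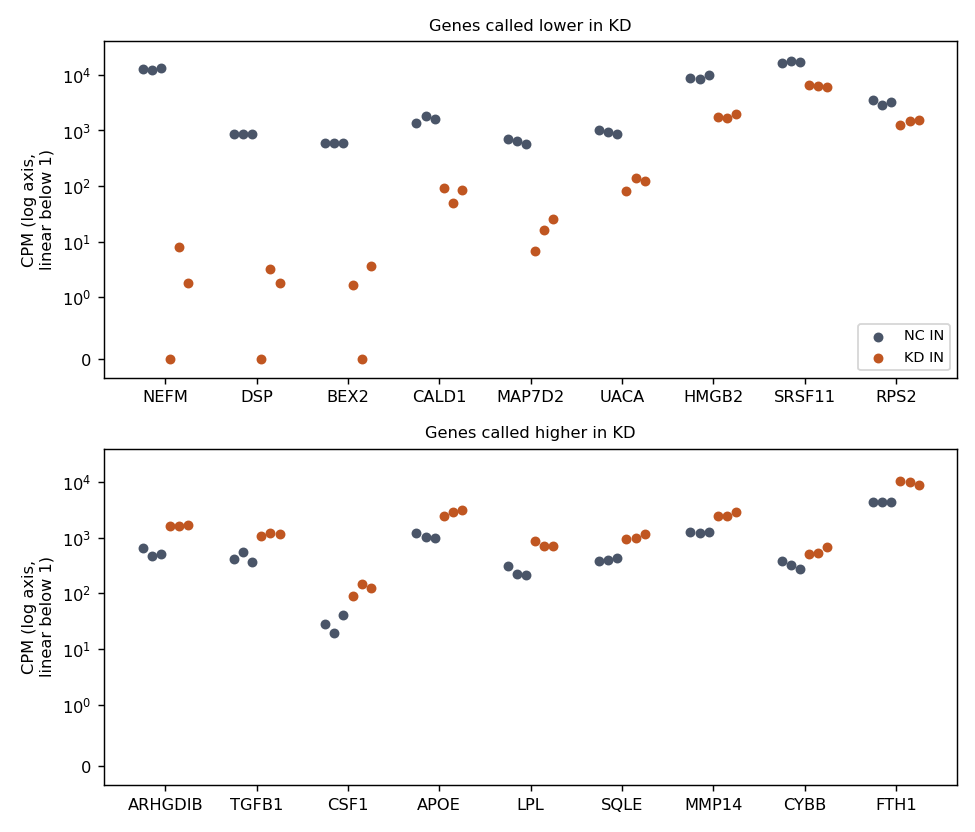
Level of 18 genes in each of the 6 input libraries, in CPM on a log axis that is linear below 1, with NC in grey and KD in orange. The upper panel holds genes called lower and the lower panel genes called higher. The NC libraries of NEFM lie between 12415 and 13181 CPM and its KD libraries at or below 7.98.

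Promoter sequences of genes that moved together were compared, from 250 bases before to 50 after the transcription start in RefSeq (GRCh38.p14). A window was given for 2173 of the 2665 genes. The AP-1 site TGANTCA, bound by FOS and JUN proteins that PMA induces, lay on either strand in 8.38% of 358 windows of genes called higher, in 2.2% of 454 windows of genes called lower and in 3.97% of 1361 uncalled genes, against 7.76% of all 27305 windows. The E-box CACGTG, read by MYC and by the lysosomal regulator TFEB, showed the opposite order, with 6.98% in genes called higher, 15.2% in genes called lower and 12.2% in uncalled genes (7.43% of all windows). The next shares are for genes called higher, genes called lower, uncalled genes and all windows, in that order. The ETS site CCGGAAG was in 13.1%, 19.6%, 19.8% and 10.7%, and the GC box GGGCGG in 72.9%, 74.7%, 76.2% and 44.6%. The cyclic AMP response element core TGACGT was in 12%, 9.25%, 13% and 8.32%, and TATAAA in 7.26%, 4.63%, 3.89% and 12%. These shares are descriptions of letters in a window and were not tested. A kept peak region overlapped the window in 31.0% of genes called higher, 21.4% of genes called lower and 39.7% of uncalled genes.

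The windows printed here, 250 bases before to 30 after the start, on the strand of the gene, show these motifs in 3 genes called higher and 1 called lower that hold an AP-1 site, chosen after their values were seen, and in FMNL3 and SERBP1, members of the groups above whose kept peak region reaches into the 300-base window from inside the gene. Capitals mark motif matches on either strand (the GC box also as CCGCCC, the ETS site also as CTTCCGG). HCLS1, higher in KD, lies at chr3:121660874-121661153 (minus strand). CD63, a lysosomal tetraspanin that rose, lies at chr12:55728980-55729259 (minus strand), and its kept peak region covers the start. GPNMB, a lysosomal glycoprotein that rose, lies at chr7:23246525-23246804 (plus strand). FTSJ3, a methyltransferase of ribosome assembly that fell, lies at chr17:63827634-63827913 (minus strand). FMNL3 lies at chr12:49707376-49707655 and SERBP1 at chr1:67430373-67430652, both on the minus strand.
HCLS1: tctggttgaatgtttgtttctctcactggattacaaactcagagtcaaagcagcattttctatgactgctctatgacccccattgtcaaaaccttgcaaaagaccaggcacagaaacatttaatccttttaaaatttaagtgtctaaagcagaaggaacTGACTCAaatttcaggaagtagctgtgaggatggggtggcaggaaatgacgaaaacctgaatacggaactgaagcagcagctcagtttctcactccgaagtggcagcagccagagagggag
CD63: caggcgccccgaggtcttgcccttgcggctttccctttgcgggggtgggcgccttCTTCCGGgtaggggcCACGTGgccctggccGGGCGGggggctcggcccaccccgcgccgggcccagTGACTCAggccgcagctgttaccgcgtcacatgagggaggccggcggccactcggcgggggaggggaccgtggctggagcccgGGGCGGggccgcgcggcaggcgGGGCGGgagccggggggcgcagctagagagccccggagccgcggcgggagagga
GPNMB: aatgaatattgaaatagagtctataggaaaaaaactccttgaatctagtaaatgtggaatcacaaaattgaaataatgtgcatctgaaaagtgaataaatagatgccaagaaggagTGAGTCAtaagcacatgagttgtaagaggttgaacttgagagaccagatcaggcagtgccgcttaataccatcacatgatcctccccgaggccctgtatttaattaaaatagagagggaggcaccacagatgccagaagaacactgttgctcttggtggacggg
FTSJ3: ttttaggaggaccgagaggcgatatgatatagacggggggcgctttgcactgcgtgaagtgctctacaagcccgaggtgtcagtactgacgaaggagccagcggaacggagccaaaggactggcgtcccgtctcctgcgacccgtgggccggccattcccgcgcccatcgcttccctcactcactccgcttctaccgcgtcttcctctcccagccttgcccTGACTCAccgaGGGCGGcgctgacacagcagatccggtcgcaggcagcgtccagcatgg
FMNL3: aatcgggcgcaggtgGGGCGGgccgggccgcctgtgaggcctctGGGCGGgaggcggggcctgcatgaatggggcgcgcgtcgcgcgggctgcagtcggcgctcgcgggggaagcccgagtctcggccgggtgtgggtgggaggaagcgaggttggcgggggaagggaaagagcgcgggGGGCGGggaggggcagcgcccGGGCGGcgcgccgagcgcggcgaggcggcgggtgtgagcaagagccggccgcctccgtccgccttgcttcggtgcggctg
SERBP1: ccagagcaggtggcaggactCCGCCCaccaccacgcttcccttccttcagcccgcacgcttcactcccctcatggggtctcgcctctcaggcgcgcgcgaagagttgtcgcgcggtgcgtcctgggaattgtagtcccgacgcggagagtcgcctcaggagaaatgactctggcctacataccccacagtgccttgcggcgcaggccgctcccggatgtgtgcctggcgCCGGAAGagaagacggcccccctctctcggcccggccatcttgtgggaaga

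Counts in the functional lists below stand against 16.8% of all genes called higher and 21.0% called lower. Of 7 listed genes of the phagocyte membrane oxidase 2 were measured, and both rose: CYBB, its catalytic chain, had 377, 317 and 272 CPM in NC and 518, 525 and 688 in KD (log2 0.84 ± 0.16, adjusted p = 0.00037 in edgeR), and CYBA, its partner, rose by 1.13 ± 0.21. Of 14 measured lysosome and cathepsin genes (39 listed), 7 were higher and none lower, with a median log2 change of 0.54 against 0.01 over all genes. They include the proteases CTSZ (0.84 ± 0.14) and CTSL (0.50 ± 0.11), the glycoprotein GPNMB (0.70 ± 0.18), the tetraspanin CD63 (3031 ± 168 to 4842 ± 410 CPM) and TFEB, the transcription factor of lysosome genes (61.3 ± 3.43 to 150 ± 25.1 CPM, log2 1.29 ± 0.26). LAMP2, a lysosomal membrane protein, had log2 -1.23 and was not called. The summed level of the list was 7025 to 7330 CPM in NC and 10818 to 11050 in KD.

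Of 12 measured lipid handling and cholesterol genes (34 listed), 4 were higher and 1 lower (median 0.52). APOE, the lipoprotein that carries cholesterol out of macrophages (chromosome 19, 44905796 to 44909393), had 1235, 1041 and 970 CPM in NC and 2502, 2943 and 3181 in KD (log2 1.41 ± 0.11, adjusted p = 1.7e-08 in edgeR). LPL, which hydrolyses triglycerides of lipoproteins, rose by 1.61 ± 0.16, SQLE, the epoxidase of cholesterol synthesis, by 1.35 ± 0.12 and SCD, which desaturates fatty acids, by 0.66 ± 0.10. DHCR7, of the last step of cholesterol synthesis, was lower (log2 -1.08 ± 0.35, adjusted p = 0.022) but not called without KD replicate 3 or NC replicate 3 (adjusted p = 0.08 and 0.11). HMGCS1, FADS1, FADS2 and LSS, of the same pathways, had log2 values of 0.38, 0.15, 0.66 and 1.0 and did not pass.

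Secreted factors made the functional list with the highest median change. Of 7 measured cytokine and chemokine genes (39 listed), 6 were higher and none lower (median 1.39). TGFB1, a cytokine that restrains inflammation and drives matrix production (chromosome 19, 41330323 to 41353922), had 410, 544 and 363 CPM in NC and 1077, 1219 and 1149 in KD (log2 1.39 ± 0.14, adjusted p = 1.9e-07 in edgeR), with 1 of its 2 regions on the opposite strand. CCL22, a chemokine for regulatory T cells, had 45.4, 87.1 and 53.6 CPM in NC and 193, 201 and 260 in KD (log2 1.82 ± 0.27). HBEGF, a ligand of the EGF receptor, rose by 1.37 ± 0.19 and PDGFA, a mesenchymal growth factor, by 1.65 ± 0.37. CCL5, an inflammatory chemokine, had log2 -0.28 and was not called.

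In the list of inflammatory signalling and NF-kB genes 9 of 47 were measured, 6 were higher and none lower (median 1.01). IL4R, the interleukin 4 receptor chain (170 ± 39.8 to 345 ± 53.9 CPM, log2 1.01 ± 0.20), and STAT6, the factor that it activates (12.1 ± 9.13 to 73.2 ± 23.9 CPM, log2 2.62 ± 0.57), were both higher. STAT6 had 18 reads in NC, in 1 region of the peak set named for NC alone. In IP it was not called (log2 0.56), whereas IL4R was called higher (1.06). CASP1, the inflammasome protease, rose by 0.79 ± 0.19. TNFAIP2 (log2 2.42 ± 0.73) was not called without KD replicate 3 (adjusted p = 0.086) and stood at 3.27 without NC replicate 3. The kinases IKBKB (2.22) and IRAK1 (0.07) and the adaptor TRAF1 (0.85) did not pass.

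In the list of interferon response and antigen presentation, 8 of 42 genes were measured, with 3 higher and 1 lower. CD74, the invariant chain of class II molecules, had 41.9, 59.5 and 84.2 CPM in NC and 176, 145 and 168 in KD (log2 1.40 ± 0.28, adjusted p = 0.00065 in edgeR). IRF9 (0.90 ± 0.32) and IFITM3 (1.08 ± 0.39) passed by little, and IRF9 missed the threshold when KD replicate 1, 2 or 3 or NC replicate 2 was left out (adjusted p 0.062 to 0.091) and IFITM3 when KD replicate 1 or 2 or NC replicate 1 or 3 was (0.067 to 0.13). The count of genes called higher in this list then ranged from 1 to 2. HLA-F, a non-classical class I molecule, had 43 reads in NC and 3 in KD, a ratio of 16.1 (95% counting interval 5.15 to 81.1). Its 1 region is in the peak set named for KD alone, and in IP it was not called (log2 -0.44).

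Transcription factors of myeloid cells and of the early response to PMA were higher in 6 of 13 measured (40 listed; median 0.99), with none lower (1 lower without NC replicate 1). MAF, a factor of mature macrophages, had 15.7, 14.9 and 61.2 CPM in NC and 88.6, 144 and 110 in KD (log2 1.89 ± 0.44, and 2.88 without NC replicate 3). The AP-1 subunit JUND rose by 0.99 ± 0.25. FOSL2, also of AP-1, had log2 1.18 ± 0.34 and an adjusted p of 0.068 without KD replicate 1. RUNX1 had 1 read in NC and 28 in KD and lost its call without KD replicate 3 or NC replicate 1 (adjusted p = 0.077 and 0.053). The 1 region of RUNX1 is in the peak set named for NC alone, and in IP it was not called (log2 0.86). JUN (0.21), EGR3 (-1.95), KLF6 (-0.96) and PPARG (-0.85) did not pass.

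Among MAP kinase cascade and DUSP phosphatase genes 7 of 14 measured (62 listed) were higher and none lower (median 0.78). MAP3K5, the stress-activated kinase ASK1, rose by 1.15 ± 0.26, MAP3K11 by 0.90 ± 0.24, MAP4K4 by 0.58 ± 0.16 and the adaptor GRB2 by 0.72 ± 0.16. The nuclear phosphatase DUSP2, which switches off ERK, had 38.4, 17 and 53.6 CPM in NC and 102, 97.3 and 91.5 in KD (log2 1.40 ± 0.37). BRAF (-0.24) and MAP2K7 (-0.15) were not called. In the TGF-beta, WNT and NOTCH list 5 of 17 measured genes were higher and 2 lower, with SMAD7, the inhibitor that TGF-beta induces (169 ± 27.9 to 326 ± 13.4 CPM, log2 0.94 ± 0.18), and NUMB, an inhibitor of NOTCH (1.12 ± 0.27), among those that rose.

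Adhesion genes rose without exception among those called, 5 of 13 measured (median 0.78). FERMT3, the kindlin that activates integrins of blood cells, had 684, 657 and 721 CPM in NC and 1798, 1578 and 1607 in KD (log2 1.27 ± 0.11, adjusted p = 2e-08 in edgeR). CD44, the hyaluronan receptor, rose by 1.06 ± 0.23. Matrix genes split, with 5 higher and 3 lower of 14 measured. The surface metalloprotease MMP14 (chromosome 14, 22836585 to 22847758) had 1266, 1232 and 1270 CPM in NC and 2416, 2443 and 2899 in KD (log2 1.04 ± 0.10). The gelatinase MMP9 rose by 0.71 ± 0.14, or 0.42 with an adjusted p of 0.058 from its deepest region alone, the plasminogen activator PLAU by 1.86 and the basement membrane collagen COL4A2 by 0.75 ± 0.13. On the other side stood P3H3, given above, and the laminin chain LAMB1 (154 ± 24.9 to 35.2 ± 10.9 CPM, log2 -2.14 ± 0.31), 1 of whose 2 regions lies on the opposite strand.

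The actin cytoskeleton showed both directions, with 11 of 24 measured genes higher and 5 lower (median 0.57). ACTB, the cytoplasmic beta actin, had 5524, 5259 and 5082 CPM in NC and 9318, 9296 and 8921 in KD (log2 0.80 ± 0.08, adjusted p = 1.6e-07 in edgeR). The tropomyosin TPM4 (1.48) and the scaffold LASP1 (0.94) rose as well. FLNA, the filamin that crosslinks actin, had 736, 907 and 757 CPM in NC and 8.52, 11.2 and 5.49 in KD (log2 -6.52 ± 0.24). Its deepest region alone gave -10.65. The relative FLNC (-4.15) and the non-muscle myosin MYH10 (-5.74 ± 0.41, and -6.82 and -5.13 without KD replicate 1 or 2) were lower too. ACTG1 (0.03) and MYH9 (0.48) were not called.

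Microtubule genes were lower in 6 of 15 measured and higher in 1 (median -0.38). TUBA1B, a tubulin alpha chain, had 5329, 4860 and 4350 CPM in NC and 2403, 2320 and 2615 in KD (log2 -0.99 ± 0.09, adjusted p = 1.3e-07 in edgeR). The axonal motor KIF1A (138 reads in NC, 5 in KD) and the tubulin TUBB2B (149 and 6) were lower and all but absent from KD, while MAP1B, which stabilises axonal microtubules, fell by 0.38 ± 0.09. TUBB2B is also on the neuronal list and MAP1B on the HEK293 list. DYNC1H1, the heavy chain of cytoplasmic dynein, rose by 0.80. Among intermediate filament and desmosome genes 6 of 10 were lower and 3 higher. NEFM and NEFL, with 1042 ± 189 CPM in NC and 3.66 ± 6.34 in KD (log2 -8.16, and -12.18 without KD replicate 3, which holds all its KD reads), were lower, whereas the heavy chain NEFH had 223, 251 and 210 CPM in NC and 510, 535 and 447 in KD (log2 1.13 ± 0.15). NEFM, NEFL and NEFH are also on the HEK293 list. Vimentin (VIM, 1.06), the filament of mesenchymal and myeloid cells, and lamin A (LMNA, 0.94) rose, and lamin B2 (LMNB2, -0.85) fell.

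HOX and other developmental transcription factors were lower or not called. Of 11 measured of 52 listed, 6 were lower and none higher, and the median was -4.28. HOXC8 had 255, 242 and 291 CPM in NC and 0, 3.19 and 0 in KD, 2 reads in all, a ratio of 231 (95% counting interval 63.7 to 1917). SALL2, a zinc finger factor of development, had 201, 221 and 180 CPM in NC and 6.82, 4.79 and 11.0 in KD (log2 -4.72 ± 0.36). HOXC9, HOXB6 and SIX4 had 1, 4 and 3 reads in KD against 103, 90 and 58 in NC. MEIS2 (-0.49), SOX4 (0.25) and ZIC2 (0.71) did not pass. In the let-7 and oncofetal list, 4 of 8 were lower: LIN28B, IRS4 (125 ± 46.8 CPM in NC and 1 read in KD), the mRNA-binding protein IGF2BP3 (87 and 1) and, by little, DICER1 (log2 -0.67 ± 0.24), which lost its call without any of 5 libraries (KD replicates 1 and 2, NC replicates 1, 2 and 3; adjusted p 0.068 to 0.12). The 1 region of IGF2BP3 is in the peak set named for KD alone, and in IP it was not called (log2 -1.64). HMGA2, a let-7 target, had log2 2.42 and was not called. IRS2 was higher (0.97 ± 0.29) but not without NC replicate 3 (adjusted p = 0.061), and 0 to 2 genes of the list were higher with 1 library left out, the moves coming without NC replicate 1 or 3. HOXC8, HOXC9, LIN28B and IRS4 are also on the HEK293 list, whose summed level averaged 24790 CPM in NC and 5882 in KD, and the part of that RNA in this result was not tested.

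Of 17 measured cell cycle and DNA replication genes (72 listed), 9 were lower, 1 was higher and 7 were not called (median -1.86). TOP2A, the topoisomerase of dividing cells (chromosome 17, 40388525 to 40417896), had 626, 814 and 610 CPM in NC and 176, 201 and 188 in KD (log2 -1.86 ± 0.15, adjusted p = 2.1e-08 in edgeR). MCM3, of the replicative helicase, went from 225 ± 14.7 to 44.7 ± 23.1 CPM (log2 -2.34 ± 0.29). The mitotic kinase NEK2 (120 reads in NC, 3 in KD) and the phosphatase CDC25A (-2.77) were lower. Of the D cyclins, CCND2 fell (148 ± 7.84 to 3.94 ± 5.50 CPM; log2 -5.14 ± 0.53, and -7.10 without KD replicate 1) and CCND1 rose (log2 1.31). CCND2 is also on the HEK293 list, and the part of that RNA in its change was not tested. CDK2 (-0.71), CDK4 (-0.53) and MCM5 (-0.45) did not pass.

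In nucleotide synthesis the purine enzymes PPAT (-3.43 ± 0.89, and -4.34 without KD replicate 1) and ADSL (-3.34 ± 0.93) were lower, and 3 of 6 measured genes of the pentose phosphate and nucleotide list fell and none rose. TKT, the transketolase, was at -0.42 and not called. Of 11 genes of amino acid, serine and one-carbon metabolism 6 were lower and 1 higher (median -0.86). SHMT2, the mitochondrial serine hydroxymethyltransferase, had 734, 873 and 736 CPM in NC and 273, 326 and 267 in KD (log2 -1.43 ± 0.14). CBS, of the path from homocysteine to cysteine, fell by 2.83 ± 0.37, and SLC3A2, the heavy chain of amino acid exchangers, rose by 0.37 ± 0.09. Of 11 measured p53, DNA damage and apoptosis genes, 3 were lower, 1 was higher and 7 were not called. The median of the list was 0.55, and 8 of the 11 changes were above 0. PARP1 (-1.27 ± 0.20), GADD45A (-1.08 ± 0.17) and PMAIP1 (-1.77 ± 0.48) fell. CFLAR passed by little (0.61 ± 0.24, adjusted p = 0.048 in edgeR) and lost its call without KD replicate 2 or 3 or NC replicate 1 or 3.

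Of 12 measured cytosolic ribosomal protein genes (78 listed), 9 were lower and none higher (median -0.63). RPS2, of the small subunit (chromosome 16, 1962058 to 1964826), had 3518, 2847 and 3294 CPM in NC and 1249, 1470 and 1539 in KD (log2 -1.18 ± 0.11, adjusted p = 6e-08 in edgeR). RPS6 fell by 0.59 ± 0.08, RPS14 by 0.64 ± 0.09, RPL35 by 0.82 ± 0.12 and RPL41 by 0.63 ± 0.10. Ribosomal protein genes have many processed pseudogenes, and how the authors counted reads shared with these copies is not given in the sources used here. Of 21 measured initiation and elongation factors, 8 were lower, 2 higher and 11 not called (median -0.31), and their summed level was 16670 ± 669 CPM in NC and 16876 ± 945 in KD. The count of genes higher was 1 without KD replicate 1, 2 or 3 or NC replicate 1 or 2. EIF5A, the hypusine-bearing factor, had 768, 776 and 622 CPM in NC and 201, 252 and 201 in KD (log2 -1.72 ± 0.15), EIF4B fell by 0.80 ± 0.10 and EEF1A2 from 315 ± 76.3 to 5.61 ± 7.13 CPM (log2 -5.74, and -7.35 without KD replicate 1). EEF1A2 is also on the neuronal list. PABPC4, a poly(A)-binding protein, rose from 3422 ± 376 to 6494 ± 383 CPM (log2 0.92 ± 0.09), and EIF4G1 (-0.03) and EIF1 (-0.02) did not pass.

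RNA modification genes, the family to which METTL1 belongs, were measured in 9 of 42 cases for tRNA and rRNA, with 5 lower and 1 higher (median -1.08). DKC1, the pseudouridine synthase of H/ACA particles and telomerase, had 6810, 6449 and 6857 CPM in NC and 3035, 2684 and 2924 in KD (log2 -1.22 ± 0.08, adjusted p = 2.4e-09 in edgeR). The ribosomal RNA methyltransferases NOP2 (715 ± 76.0 to 301 ± 48.3 CPM, log2 -1.25 ± 0.14), EMG1 (-1.08 ± 0.24) and FTSJ3 (-0.70 ± 0.10) fell, as did the tRNA cofactor WDR6 (-1.16). NSUN2, the cytosine methyltransferase of tRNA and mRNA, rose from 163 ± 15.0 to 280 ± 28.3 CPM (log2 0.78 ± 0.18). Among cap and m6A genes, ZC3H13 of the m6A writer complex (-0.61 ± 0.10) and the demethylase ALKBH5 (-0.70 ± 0.19) fell, with 3 of 8 measured higher and 4 lower, or 0 to 2 higher with 1 library left out (moved by over 1.5 times without KD replicate 2 or 3 or NC replicate 2). YTHDF3 (1.26 ± 0.36) was called higher, but not without KD replicate 2 or NC replicate 2 (adjusted p = 0.076 and 0.052). Of the 6 measured aminoacyl-tRNA synthetases SARS1 fell (1564 ± 95.5 to 944 ± 71.1 CPM, log2 -0.73 ± 0.10), and WARS1 (0.65 ± 0.23) lost its call without KD replicate 1 or 3 or NC replicate 3 (adjusted p 0.078 to 0.16).

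Splicing factors and hnRNPs fell in 16 of 43 measured genes and rose in none (median -0.30; 1 rose without KD replicate 3). Beside SRSF11 and HNRNPA1, the RNA-binding protein EWSR1 had 5814, 5093 and 5329 CPM in NC and 2728, 2496 and 3151 in KD (log2 -0.96 ± 0.10, adjusted p = 2.6e-07 in edgeR). HNRNPD, which binds AU-rich elements, fell by 0.84 ± 0.10, HNRNPA3 (1 of 2 regions on the opposite strand) by 0.80 ± 0.09, the paraspeckle protein NONO by 0.78 and the branch-site factor U2AF2 by 0.68. HNRNPC (0.07), HNRNPK (-0.29), SFPQ (-0.30) and SF3B2 (-0.05) were not called. In the stress granule and mRNA decay list, with 5 lower and 3 higher of 19 (3 to 5 and 1 to 3 with 1 library left out, moved by over 1.5 times without replicate 1 or 2 of either group), FMR1 fell from 176 ± 10.1 to 60.6 ± 14.4 CPM (log2 -1.53 ± 0.26) and the nonsense-mediated decay nuclease SMG6 by 1.69 ± 0.37. The shares of that list were 26.3% lower and 15.8% higher, against 21.0% and 16.8% of all genes. AGO2, the slicer of RNA interference, had 2 reads in NC and 59 in KD, a ratio of 26.3 (95% counting interval 6.96 to 222). Its fitted log2 change of 4.51 became 7.22 without NC replicate 1 and 2.38 without a minimum of reads per region, which is a smaller ratio than that interval holds. ELAVL1 (0.15) and UPF1 (0.15) did not pass.

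Chromatin modifiers and remodelers were lower in 10 of 46 measured genes and higher in 1, with a median of -0.17. The share lower, 21.7%, is close to the 21.0% of all genes. With 1 library left out 6 to 9 were lower and 0 to 2 higher, the lower count moving by over 1.5 times without KD replicate 1 or 2 or NC replicate 3 and the higher without any KD replicate or NC replicate 1. SMARCE1, of the SWI/SNF complex, went from 4656 ± 139 to 3168 ± 276 CPM (log2 -0.56 ± 0.09), and its ATPase SMARCA4 from 2369 ± 104 to 1823 ± 161 (-0.38 ± 0.10). CHD4, the NuRD remodeler, had 7722, 7826 and 8229 CPM in NC and 6336, 6209 and 6280 in KD (log2 -0.34 ± 0.08, adjusted p = 0.0019 in edgeR). The histone demethylase KDM5C fell by 0.51 ± 0.12. The other 35 genes, among them EP300 (-0.68) and KMT2D (-1.25), did not pass.

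In glycolysis 2 of 11 measured genes were higher and 2 lower (median 0.42). PKM, the pyruvate kinase, had 5671, 5282 and 4832 CPM in NC and 6859, 7204 and 7435 in KD (log2 0.45 ± 0.08, adjusted p = 0.00037 in edgeR), and LDHB, a lactate dehydrogenase chain, 651 ± 45.5 and 282 ± 30.2 CPM (log2 -1.20 ± 0.14). HK2 (0.77 ± 0.28) lost its call without KD replicate 1 or 2 or NC replicate 2 or 3 (adjusted p 0.053 to 0.16), which leaves 1 gene called higher, and GAPDH (0.10) and ENO1 (0.25) did not pass. In the list of the tricarboxylic acid cycle and respiration 1 gene of 12 was higher and 1 lower (1 to 2 and 0 to 2 with 1 library left out, the moves coming without KD replicate 2 or NC replicate 1 or 2). CYC1, of complex III, had 12.2, 21.2 and 0 CPM in NC and 57.9, 54.3 and 67.7 in KD (log2 2.43 ± 0.64, and 3.20 without NC replicate 2), and NDUFB8, of complex I, passed by little (-0.52 ± 0.15; adjusted p = 0.073 without NC replicate 1). Mitochondrial import genes TIMM44 (-0.82 ± 0.18) and TOMM20 (-0.71 ± 0.20) fell, 2 of 10 measured with mitochondrial ribosome genes. Of 7 genes of the mitochondrial genome, 3 were lower, among them COX2 (-0.56 ± 0.14) and ND3 (-0.58 ± 0.11), and KD replicate 3 was the lowest KD library in all 7.

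Among 18 measured genes that answer unfolded proteins or eIF2 phosphorylation, 6 were higher and 3 lower (3 to 5 higher with 1 library left out, moved by over 1.5 times without KD replicate 1). ATF4, the transcription factor of this response, had 1582, 1575 and 1475 CPM in NC and 983, 997 and 942 in KD (log2 -0.66 ± 0.10, adjusted p = 3.1e-05 in edgeR), and DDIT4, its target that restrains mTOR, fell by 1.02 ± 0.26. PPP1R15A, given above, rose, as did the folding enzyme P4HB (5585 ± 542 to 7483 ± 694 CPM, log2 0.42 ± 0.09). XBP1 (-0.28), TRIB3 (0.39) and the kinase EIF2AK3 (0.09) did not pass. Among chaperones 3 of 10 were higher and 3 lower: HSPH1 (0.70 ± 0.14) and DNAJB11 (1.27 ± 0.35) rose with HSP90AB1, and AHSA1, the HSP90 activator (-0.62 ± 0.12), fell with HSP90AA1. In IP HSPH1 was called higher (log2 0.75) and DNAJB11 was not called (-0.09). Of 6 genes of oxidative stress and iron, FTH1, GCLC and NFE2L2, the NRF2 factor that induces both (109 ± 23.7 to 193 ± 34.2 CPM, adjusted p = 0.01, and 0.054 without KD replicate 1), were higher, and the superoxide dismutase SOD1 had 1256 ± 21.5 CPM in NC and 766 ± 87.6 in KD (log2 -0.71 ± 0.11).

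Of 37 measured vesicle traffic genes 12 were higher and 2 lower (median 0.49). The counts were 6 to 9 higher and 0 to 3 lower with 1 library left out, the higher count moving by over 1.5 times without KD replicate 1 or 2 or NC replicate 2 and the lower without KD replicate 1 or 2 or NC replicate 1 or 3. RAB13, a GTPase of surface delivery, had 3360, 3362 and 3824 CPM in NC and 5469, 6157 and 6392 in KD (log2 0.77 ± 0.09, adjusted p = 1.6e-06 in edgeR). The clathrin adaptor chains AP2S1 (0.97 ± 0.14) and AP3B1 (0.46 ± 0.11) and the sorting nexin SNX3 (0.90 ± 0.16) rose. Solute carriers were higher in 13 of 47 and lower in 6, with SLC43A3, a purine nucleobase transporter, from 421 ± 28.1 to 1189 ± 106 CPM (log2 1.5 ± 0.12) and the calcium exchangers SLC8A1 (2.89 ± 0.57) and SLC24A1 (-1.78 ± 0.20) on opposite sides. The autophagy gene MAP1LC3B, which marks autophagosomes, rose by 0.96 ± 0.22 (4 of 10 in its list higher, 2 to 4 with 1 library left out, moved without KD replicate 1 or 3 or NC replicate 3). Of 10 measured proteasome genes 2 were higher and none lower, and at most 1 with any 1 library left out, as PSMD2 (0.29 ± 0.10) and PSME2 (1.01 ± 0.36) passed by little.

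Of 45 measured ZNF zinc finger genes, 5 were higher and 7 lower (11.1% and 15.6%, against 16.8% and 21.0%; median -0.03). ZNF768 had 2126, 2063 and 2471 CPM in NC and 656, 699 and 754 in KD (log2 -1.66 ± 0.11, adjusted p = 9.9e-10 in edgeR) and ZNF318 rose by 0.68 ± 0.13. Of 36 ubiquitin ligase and deubiquitinase genes, 5 were higher and 5 lower (3 to 5 higher with 1 library left out, moved by over 1.5 times without any of them but NC replicate 3). Each share, 13.9%, is below that over all genes (16.8% and 21.0%). USP1, which deubiquitinates the clamp of DNA repair, went from 386 ± 65.3 to 91.0 ± 42.2 CPM (log2 -2.09 ± 0.27) and the ligase subunit SKP1 from 319 ± 23.3 to 482 ± 25.2 (0.59 ± 0.14). In PI3K, AKT and mTOR signalling, PIK3R1, the regulatory subunit of PI3K, had 52.3, 29.7 and 40.2 CPM in NC and 131, 128 and 148 in KD (log2 1.72 ± 0.30), and the list held 3 higher and 2 lower of 14 (1 to 3 higher, moved without NC replicate 3), while AKT1 (-0.09), AKT2 (0.02) and TSC1 (-0.12) did not pass. Its shares were 21.4% higher and 14.3% lower, against 16.8% and 21.0% of all genes. In sphingolipid and phospholipid signalling, PTGS1, the constitutive cyclooxygenase, rose by 1.04 ± 0.26, and 3 of 10 were higher and 1 lower (1 to 4 and 0 to 1, moved without KD replicate 2 or NC replicate 3). Of 10 genes often used as references 4 were higher and none lower: YWHAZ rose from 110 ± 10.8 to 257 ± 9.22 CPM beside ACTB, while GAPDH, VCP (0.17) and EMC7 (0.12) were not called.

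**Figure D4:**
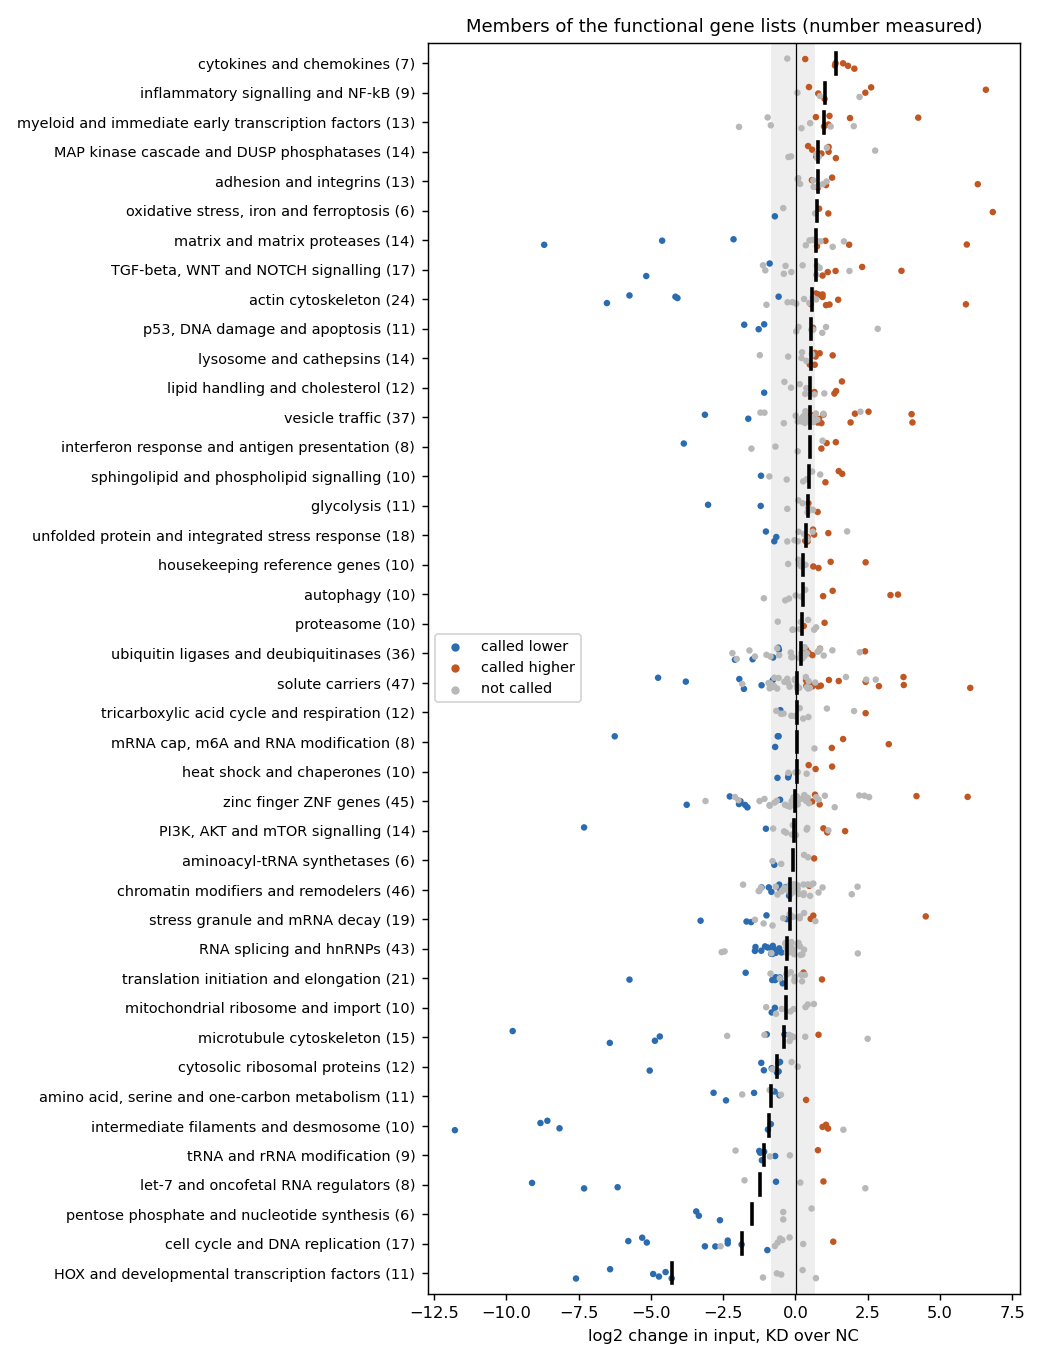
Log2 change, KD over NC, of every measured member of the functional lists, ordered by the list's median, which the black bar marks. The phagocyte oxidase list, with 2 measured members, is not shown. The number measured stands beside each name, colours give the call, and the grey band spans the quartiles of all 2665 genes, -0.80 to 0.66. Among these lists cytokines and chemokines have the highest median (1.39) and HOX and developmental factors the lowest (-4.28).

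The sum over its regions sets the value of a gene, so a called gene and its regions tend to share a sign by construction. Of 296 called genes with several regions, 274 (92.6%) had all regions on the side of the gene, and of 278 uncalled genes with several regions 145 had all regions of 1 sign. In 22 of the called genes at least 1 region had the other sign, and in 3 genes regions were called in opposite directions, with 35.9% of all 3402 regions called. GNAS, the stimulatory G protein subunit on chromosome 20, had a region at 58889523 to 58890305 that was higher (log2 0.87 ± 0.16) and one at 58891654 to 58891865 that was lower (-0.54 ± 0.10), and as a gene it was not called. COX20 on chromosome 1 had 55, 54 and 35 reads in NC and 123, 113 and 106 in KD at 244835645 to 244835705 (log2 1.07 ± 0.24), and 627, 521 and 403 reads in NC against 196, 218 and 187 in KD at 244840757 to 244841027 (-1.54 ± 0.15). The deeper of these regions lies on the strand opposite to COX20, so its reads may not come from that gene, and without it COX20 turned from lower (-1.01) to higher (1.07). CYTH2 on chromosome 19 had regions at 0.58 and -1.11. Exon, intron and untranslated positions were not used here, as the reference tables give gene bodies alone.

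The same regions in the immunoprecipitated libraries, which are other libraries of the same groups, changed much as in input. There 1281 of 2665 genes were called (48.1%), 628 higher (23.6%) and 653 lower (24.5%). Of the 448 genes higher in input, 405 (90.4%) had the same sign in IP, 328 (73.2%) were called the same way and 2 the other way. Of the 559 genes lower in input, 531 (95%) had the same sign, 421 (75.3%) were called the same way and none the other way. In reverse, 52.2% of the IP calls higher and 64.5% of the IP calls lower were called alike in input. Both kinds of library come from the same groups of cells, so IP repeats the difference between groups and is no separate sample of it. Single genes ran close, such as HMGB2 (log2 -2.34 in input and -2.08 in IP), DKC1 (-1.22 and -1.06), YBX1 (1.03 and 1.02), TGFB1 (1.39 and 1.45) and APOE (1.41 and 1.65). CSF1, at 2.04 in input, was 0.40 and not called in IP, and FAT1, at 2.12, was 0.39.

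**Figure D5:**
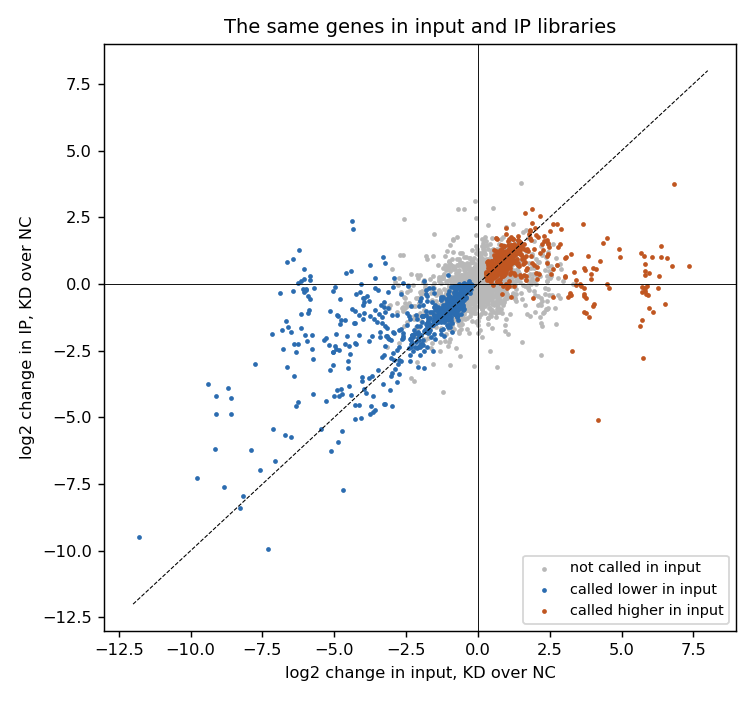
Log2 change in IP against log2 change in input, KD over NC, for the 2665 genes, with the dashed line at equal values. Genes called lower in input (blue) had the same sign in IP in 95% of cases and genes called higher (orange) in 90.4%. The points spread widely in IP where the input change rests on few reads, at the far left and right.

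Shares called and sizes of change differed between depths. With 1000 input reads or more, 66.8% of 503 genes were called, with a median size of 0.77 on the log2 scale. From 200 reads up to that depth 42.6% of 761 genes were called, at a median size of 1.06, from 50 reads up to 200 23.5% of 780 (2.37) and under 50 reads 26.4% of 621 (4.31). The sizes of called changes therefore cannot be compared between deep and shallow genes. Values also differed by peak set: genes with regions in the NC peak set alone had a median log2 change of 0.35 (19.3% higher, 16.6% lower), genes in the KD set alone -0.49 (7.88% higher, 27.6% lower) and genes in both 0.10 (21.1% and 19.2%). The part of peak calling in this was not tested.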

How the data were processed

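Per the labels, 6 input libraries (3 NC, 3 KD) and 6 IP libraries of m7G immunoprecipitation sequencing were used. The authors deposited raw read counts per peak, whole numbers without normalization, and a length per peak. Per the submitters' processing notes reads were trimmed with fastp 0.23.4 and GRCh38 was used; aligner, peak caller and counter are not given in the sources used here. A peak was named by the 1 protein-coding RefSeq gene (GRCh38.p14), else the 1 other gene, whose body it overlapped. Kept peaks had 20 or more input reads; of overlapping ones the widest was kept, and counts were summed per gene. Peak regions give reads in peaks, not library depth, and intervals and floors (3 counts per group) cover counting error only.

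edgeR 4.0.16 (R 4.3.3) with TMM scaling and the quasi-likelihood test compared the 3 KD with the 3 NC input libraries over all 2665 genes, at a Benjamini-Hochberg adjusted p under 0.05. IP was fitted alike. The procedure was tested on simulated data. Tables used Python 3.11.15 and pandas 2.3.3. Same-numbered libraries were not paired. The members and lists were chosen with earlier results of these data known. Among called genes with groups that do not overlap, the 8 lowest and highest by log2 change were named, and the same with 20 or more reads in each group. The 6 with the largest CPM gain or loss were added under the same condition. Up to 5 measured members per list were named by smallest p, whether or not they were called or their groups overlapped. Other genes named with a value, and the printed promoters, were chosen after their values were seen. A Y-linked gene that the rule names is not reported here. Alternatives were DESeq2 1.42.0, other scalings, filters, overlap and naming rules, the replicate block and leaving out each library. Leaving out opposite-strand peaks or mitochondrial genes, and scaling without genes that differ 4-fold, were added after seeing the data. Values of some genes are not reported here.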

Additional observations from a re-analysis of the deposited data

How the results depend on the processing

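The direction of the input comparison held in every setting run. Of 5210 values of the 247 named genes under the alternatives, 0 reversed; outside them, COX20 changed sign when opposite-strand peaks were left out. With 1 library left out, 840 to 925 genes were called (353 to 434 higher, 482 to 530 lower), the median log2 change was -0.01 to 0.02, and 1143 to 1225 genes were called in IP. Genes with peaks in both sets gave 495 calls of 1203 (234 higher, 261 lower). An adjusted p under 0.01 left 690 calls (284 higher, 406 lower), and a change of at least 2-fold left 632 (244 higher, 388 lower). DESeq2 called 904 genes (386 higher, 518 lower). Library size alone moved the median to 0.08 and the share of calls that are higher from 44.5% to 49.3%, and scaling without genes that differ 4-fold moved them to -0.04 and 40.9%. Of the 219 named genes called, 31 lost the call with some library left out and 25 under some other setting. Regions of few reads limit depth: 123 genes called lower had fewer than 4 reads in KD.

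With the replicate number as a block 888 genes were called (393 higher, 495 lower), 86.7% of the calls being kept, and 1214 in IP. Deviations of same-numbered libraries correlated at -0.057, -0.038 and -0.008, and those of differently numbered libraries at -0.042 to 0.079. With 3 libraries per group these values cannot tell whether same-numbered libraries shared a culture or a batch.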
